A study of Mus musculus with 12 samples.

Results

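The genes described here are 10 AP-1 and immediate early genes, Fos, Fosb, Jun, Junb, Jund, Atf3, Egr1, Ier2, Ier3 and Dusp1, found by their symbols in the GENCODE M21 annotation of the mouse genome. Each symbol matched 1 of the 52636 gene identifiers in the count table, of which 27795 had a count in any library. All 10 had counts in each of the 4 groups. In tumors, the bispecific antibody came with a 2.63-fold rise of Atf3, a 1.69-fold rise of Fos and a fall of Ier2 to 0.755 of its level in vehicle tumors. In livers of the mice given antibody, Junb was 2.95-fold higher and was the only one of these genes past the threshold.

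Immediate early genes are transcribed within minutes of a stimulus from promoters that are already primed, without the need for new protein synthesis. Many encode transcription factors. Proteins of the Fos, Jun and ATF families pair through leucine zippers to form AP-1, which binds DNA downstream of MAP kinase signalling, and its transcripts are short-lived, while feedback factors such as the phosphatase Dusp1 shut the kinases off. The same genes are well known to be induced while a tissue is being dissociated, so their level in dissociated tissue can hold a part that arose after the organ was taken.

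The mice were female FVB/NJ mice that all carried a Fo5 tumor, which came from the MMTV-HER2 transgenic founder 5 line and was implanted as a small piece into the mammary fat pad, so the livers of the vehicle group are also livers of mice with a tumor. Only the implanted tumor carries the transgene, whose promoter is that of the mouse mammary tumor virus. When tumors averaged about 350 to 500 mm3, mice received 1 intravenous dose, either vehicle buffer or anti-HER2/CD3 at 5 mg/kg. Anti-HER2/CD3 is a T cell-dependent bispecific antibody (TDB) that binds HER2 with one arm and CD3 on T cells with the other. Tumors and livers were collected 24 h after the dose. The groups are tumor TDB, tumor vehicle, liver TDB and liver vehicle, with 3 libraries each from dissociated tissue, and by the design text each treatment had 3 mice. How long each tissue was dissociated is not given in the sources used here.

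Total counts were 20796764 to 29396324 per tumor library and 18460159 to 25542980 per liver library. The tissue labels matched the defining markers: 8 hepatocyte genes summed to 7.64 to 53.2 CPM (counts scaled to library size) in tumors and to 118846 to 199212 CPM in livers, and 8 mammary epithelial genes to 21321 to 26079 CPM in tumors and to 247 to 595 CPM in livers. Serpina1c was at 0 in TDB tumors, Wap in both groups of livers and Elf5 in vehicle livers. Liver TDB library 3 stood apart. It had 2.05% mitochondrial counts, against 0.847% and 0.914% in the other TDB livers, and its log2 difference from them followed exonic length over 13649 genes (Spearman's rho 0.63, a description across genes of these libraries). The changes of the genes in liver are therefore given with and without it, as are the counts over gene lists and the order of levels.

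Promoter sequences of 4 genes are shown because 3 of them, Fos, Atf3 and Junb, passed the test as higher with TDB in a tissue, and the fourth, Dusp1, holds the complete cyclic AMP response element. Each is the 250 bases before the transcription start in RefSeq on build GRCm38.p6, the C57BL/6J reference and not the FVB/NJ strain of these mice, written 5′ to 3′ on the strand of the gene. They lie at chr12:85473640-85473889 for Fos (plus strand), chr1:191183334-191183583 for Atf3 (minus strand), chr8:84978749-84978998 for Junb (minus strand) and chr17:26508473-26508722 for Dusp1 (minus strand). Capitals mark TGACG, the core of the cyclic AMP response element TGACGTCA, read on either strand, so that CGTCA is a match on the other strand, and in Dusp1 also the complete element.
Fos: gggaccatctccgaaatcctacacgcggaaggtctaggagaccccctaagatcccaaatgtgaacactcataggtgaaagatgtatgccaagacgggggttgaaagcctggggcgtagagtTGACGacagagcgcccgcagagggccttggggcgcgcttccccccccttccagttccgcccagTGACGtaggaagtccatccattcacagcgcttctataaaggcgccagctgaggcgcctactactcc
Atf3: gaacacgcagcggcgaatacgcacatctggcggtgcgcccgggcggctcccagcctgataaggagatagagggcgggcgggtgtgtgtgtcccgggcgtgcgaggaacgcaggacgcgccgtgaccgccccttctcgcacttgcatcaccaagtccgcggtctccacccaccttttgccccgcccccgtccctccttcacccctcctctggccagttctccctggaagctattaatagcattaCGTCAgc
Junb: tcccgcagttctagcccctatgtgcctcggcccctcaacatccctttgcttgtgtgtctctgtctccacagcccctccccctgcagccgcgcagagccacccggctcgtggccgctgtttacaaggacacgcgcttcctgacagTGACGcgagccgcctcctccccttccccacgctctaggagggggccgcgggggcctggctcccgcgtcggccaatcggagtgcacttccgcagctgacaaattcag
Dusp1: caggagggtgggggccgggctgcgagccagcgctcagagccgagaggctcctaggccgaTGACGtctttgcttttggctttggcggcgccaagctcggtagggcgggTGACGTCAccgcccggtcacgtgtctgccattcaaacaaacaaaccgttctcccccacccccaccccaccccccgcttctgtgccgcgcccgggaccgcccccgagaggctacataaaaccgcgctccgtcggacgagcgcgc
In these sequences TGACG starts at bases -129 and -66 before the start of Fos and at base -106 before that of Junb, and as CGTCA at base -7 before that of Atf3. Of 8 of the genes searched (Egr1 and Ier2 were not), 5 held TGACG in this window, with Fosb and Dusp1 beside the 3 above. The window of Jund ends at base 70697738 of chr8. In GENCODE M21 that gene begins at base 70698949, so the window does not adjoin it. The windows of Atf3 and Dusp1 lie inside their GENCODE genes, which extend to base 191218039 of chr1 and base 26562128 of chr17. Of all 32851 promoters of this length in the RefSeq table, 17.8% held TGACG. TGACGTCA, which contains TGACG on both strands, was found in 1 of the 8, Dusp1, from base -143, and in 1.55% of all promoters. The AP-1 element TGACTCA, the string TTCNNNGAA (N for any base) and the CArG box of serum response factor were in none of the 8. They were in 4.46%, 7.02% and 1.47% of all promoters. A match is a string of letters and says nothing of binding in these tissues.

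**Figure D1:**
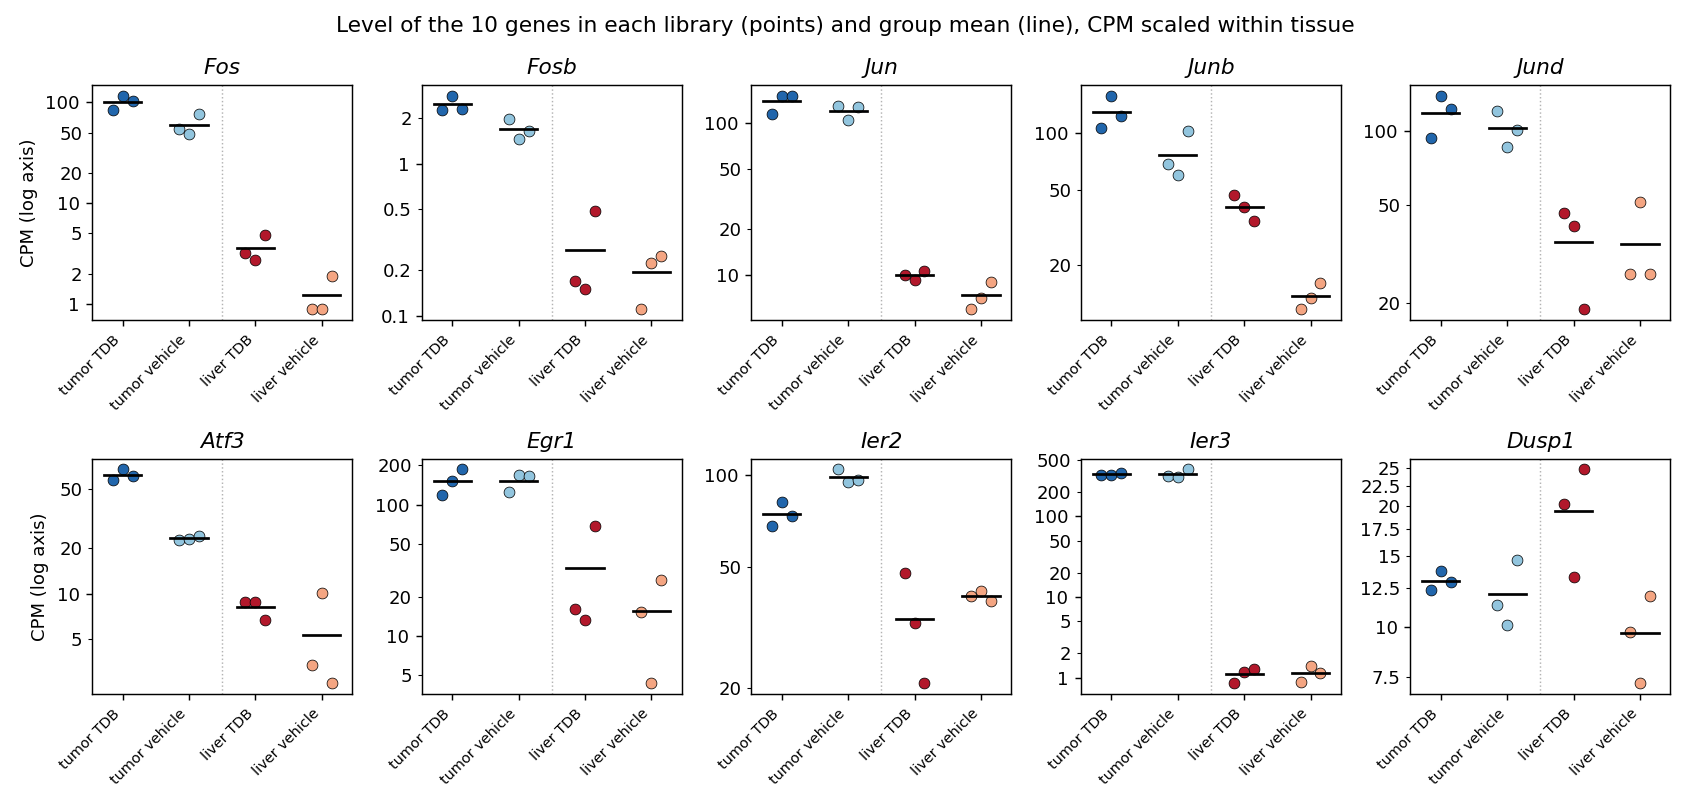
Level of each gene in every library, in CPM on a log axis scaled within each tissue, with 3 libraries (points) and the mean (line) per group. Atf3 sits at 56.9 to 67.2 CPM in TDB tumors, above the 22.6 to 24.4 CPM of vehicle tumors, and Junb at 34.0 to 46.9 CPM in TDB livers, above the 11.6 to 16.1 CPM of vehicle livers.

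The first comparison asked how TDB changed these genes in the tumor, where its target is. Of the 10 genes tested, 2 rose and 1 fell. Over all 15454 genes tested, 15.8% were called higher, 13.1% lower and 28.8% in either direction, so the 3 in 10 called here are close to the share of all genes. The split of all calls, 2437 higher and 2019 lower, depended on scaling, with 2075 higher and 2991 lower under upper quartile scaling and 1856 higher and 3994 lower without scaling factors. The genes' median log2 fold change was 0.21, with a median of -0.02 over all genes tested. The CPM ranges of TDB and vehicle tumors did not overlap for 4 genes higher with TDB (Fos, Fosb, Junb and Atf3) and 1 lower (Ier2), against 23.0% of all genes higher and 23.1% lower.

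Fos, a partner of Jun proteins in AP-1, had 84.6, 116 and 103 CPM in TDB tumors, against 54.2, 49.0 and 76.5 CPM in vehicle tumors. The groups did not overlap and vehicle tumor 3 came nearest to the TDB tumors. Fos rose by a log2 fold change of 0.76 (SE 0.19), with a Benjamini-Hochberg adjusted p of 0.0250 (edgeR, quasi-likelihood F test, as for each adjusted p unless another tool is named). That call was lost without TDB tumor 2 (adjusted p = 0.0802), TDB tumor 3 (0.0686), vehicle tumor 1 (0.0977) or vehicle tumor 2 (0.0568). Fosb, a relative whose truncated splice form accumulates after repeated stimulation, stood far lower at 2.26, 2.80 and 2.30 CPM in TDB tumors, against 1.97, 1.45 and 1.63 CPM in vehicle tumors. Its groups did not overlap either, but the change of 0.55 (SE 0.22) did not pass (adjusted p = 0.101).

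Among the Jun genes, Junb, a weaker activator than Jun that can also oppose it, had 106, 158 and 123 CPM in TDB tumors, against 68.1, 59.8 and 102 CPM in vehicle tumors. Vehicle tumor 3 came close to the lowest TDB tumor. The log2 fold change of 0.75 (SE 0.24) missed the threshold (adjusted p = 0.0647), and without vehicle tumor 3 it was 1.02 with an adjusted p of 0.00688. DESeq2 and limma-voom called it, with adjusted p-values of 0.00108 and 0.0238. Jun, the classical AP-1 subunit that JNK activates, had 115, 151 and 150 CPM in TDB tumors, against 130, 104 and 127 CPM in vehicle tumors. Jund, which many resting cells hold at steady levels, had 93.3, 139 and 123 CPM in TDB tumors, against 121, 86.3 and 101 CPM in vehicle tumors. Both sets of ranges overlapped, and the log2 fold changes were 0.20 (SE 0.13) for Jun and 0.21 (SE 0.17) for Jund.

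The largest change was that of Atf3, a stress-induced ATF family factor that represses many inflammatory genes when it pairs with itself. Atf3 had 56.9, 67.2 and 60.3 CPM in TDB tumors (61.4 ± 5.27, SD, n = 3), against 22.6, 23.1 and 24.4 CPM in vehicle tumors (23.4 ± 0.889, SD, n = 3). The libraries of each group lay close together and the groups were far apart. Atf3 rose by 1.40 on the log2 scale (SE 0.086, adjusted p = 6.75e-06). All 15 alternatives called it too, the highest adjusted p among them being 0.0436. In bulk samples fewer cells of a type and less RNA per cell cannot be told apart, and a higher level can likewise mean more cells or more RNA per cell.

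Egr1, a zinc-finger factor induced by growth factors, had 119, 152 and 186 CPM in TDB tumors, against 125, 168 and 165 CPM in vehicle tumors. These ranges overlapped almost entirely, with a log2 fold change of -0.00 (SE 0.18). Ier2, a small nuclear protein of the immediate early response, moved the other way from Fos and Atf3. It had 68.2, 81.8 and 73.2 CPM in TDB tumors (74.4 ± 6.87, SD, n = 3), against 104, 94.9 and 96.4 CPM in vehicle tumors (98.5 ± 5.06, SD, n = 3). Every TDB tumor was below every vehicle tumor, and Ier2 fell by 0.40 on the log2 scale (SE 0.084, adjusted p = 0.00683). It passed in 14 of 15 alternatives, the exception being the fit of all 12 libraries together (adjusted p = 0.286).

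Ier3, a stress-induced regulator of cell survival and ERK signalling, was abundant in every tumor, at 327, 326 and 341 CPM in TDB tumors, against 313, 308 and 381 CPM in vehicle tumors. Dusp1, the phosphatase that inactivates p38 and JNK, had 12.4, 13.8 and 12.9 CPM in TDB tumors, against 11.4, 10.1 and 14.7 CPM in vehicle tumors. Neither gene separated the groups, with log2 fold changes of -0.01 (SE 0.093) for Ier3 and 0.11 (SE 0.15) for Dusp1.

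Markers of other cells moved with these results. In TDB tumors 8 of 9 T cell, 4 of 4 NK cell, 3 of 4 tested neutrophil and 6 of 8 monocyte and macrophage markers rose, against 15.8% of all genes tested. The NK cell markers were near 0 in vehicle tumors and passed the count filter through the TDB tumors, as did Cd3e. Their count was thus nearly fixed in advance. Of 6 neutrophil markers listed, only the 4 that passed the filter are counted. Summed T cell markers were 16.5 to 27.5 CPM in TDB tumors and 2.98 to 5.68 CPM in vehicle tumors, where Cd3e was at 0. Summed NK cell markers were 14.2 to 21.0 CPM in TDB tumors and 0.226 to 0.412 CPM in vehicle tumors. Neutrophil markers summed to 38.9 to 75.8 CPM in TDB tumors and 4.65 to 11.5 CPM in vehicle tumors, where Ly6g was at 0. Monocyte and macrophage markers summed to 326 to 464 CPM in TDB tumors and 166 to 260 CPM in vehicle tumors. Of 8 mammary tumor epithelium markers 1 rose and 2 fell, Krt8 and Erbb2, while limma-voom called 1 lower. The call of Erbb2, the mouse HER2 gene, was lost in the fit of all 12 libraries (adjusted p = 0.104). Erbb2 had 337 to 375 CPM in TDB tumors and 516 to 545 CPM in vehicle tumors. These counts are of the mouse gene, and how far reads of the tumor's HER2 transgene enter them is not known. The list summed to 25056 to 26079 CPM in TDB tumors and 21321 to 25049 CPM in vehicle tumors. Of 7 endothelial markers tested 0 rose and 2 fell, Kdr and Emcn (0 higher also by DESeq2, limma-voom and at an unadjusted p under 0.05), with sums of 103 to 163 CPM in TDB tumors and 121 to 197 CPM in vehicle tumors. The part of these cells in the changes of Atf3, Fos and Ier2 was not tested.

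**Figure D2:**
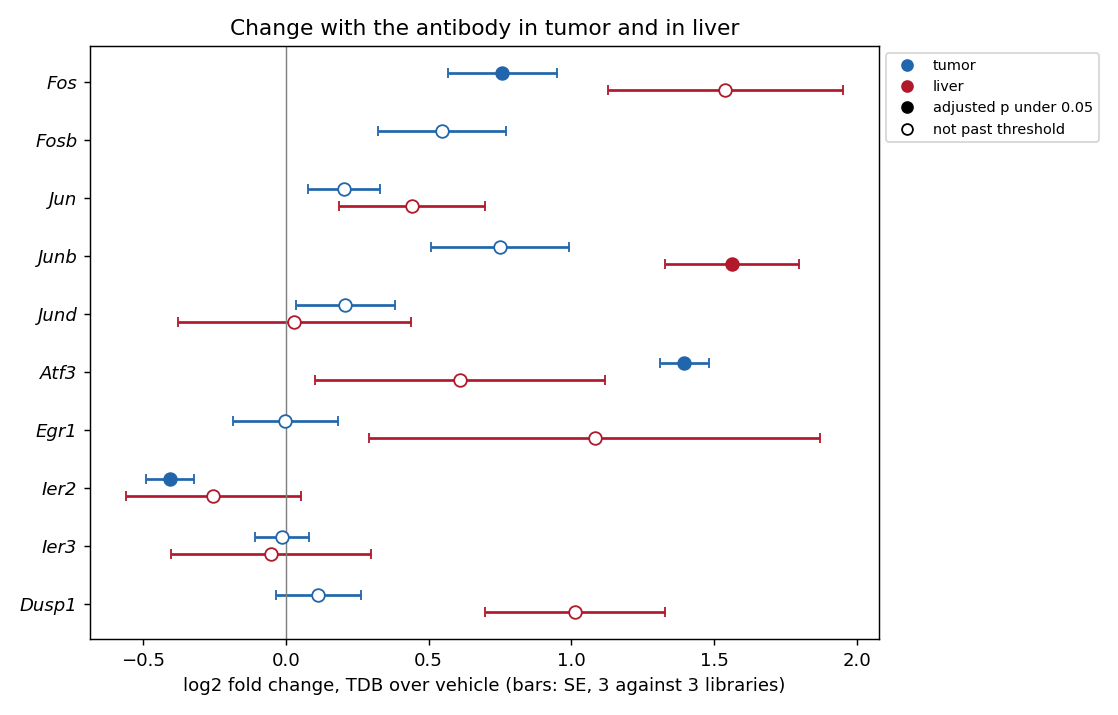
Log2 fold change of each gene, TDB over vehicle, in tumor (blue, upper of each pair) and liver (red, lower), with bars for 1 SE and filled points for adjusted p under 0.05. Atf3 and Fos lie to the right and Ier2 to the left among filled tumor points, Junb is the 1 filled liver point, and Fosb had too few counts to be tested in liver.

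The second comparison asked the same of the liver, which does not carry the tumor's HER2 transgene. Of 9 genes tested, 1 rose, Junb, against 0.513% of 13657 genes called higher and 0.535% called in either direction. None fell by edgeR, DESeq2 or limma-voom, where edgeR called 0.0220% of all genes lower, and 0 of the 9 were lower at an unadjusted p under 0.05. With only 73 genes called in all, few genes of any kind passed in liver. At an unadjusted p under 0.05, 3 of the 9 were higher (Junb, Fos and Dusp1), while 1105 of all 13657 genes were past that level in either direction. The ranges of TDB and vehicle livers did not overlap for 4 genes, all higher with TDB (Fos, Jun, Junb and Dusp1), against 9.11% of all genes higher and 5.46% lower. The median log2 fold change of the 9 was 0.61, with 0.04 over all genes tested. Without TDB liver 3 Junb was again the 1 gene called, while 151 genes were called higher and 12 lower of 13888 tested, and the median of the 9 was 0.40.

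Junb had 46.9, 40.3 and 34.0 CPM in TDB livers (40.4 ± 6.47, SD, n = 3), against 11.6, 13.4 and 16.1 CPM in vehicle livers (13.7 ± 2.23, SD, n = 3). The lowest TDB liver was library 3, and it was still above every vehicle liver. Junb thus rose by 1.56 on the log2 scale (SE 0.24), with an adjusted p of 0.0426. Without TDB liver 3 it was 1.68 with an adjusted p of 0.00722, whereas the call was lost without TDB liver 1 (0.0711) or 2 (0.263) and without vehicle liver 1 (0.320), 2 (0.196) or 3 (0.218). Junb shares 173 exonic bases with Prdx2 on the opposite strand, a gene with 707 to 3399 counts per library, and reads of the 2 genes there cannot be told apart since the strand setting of the counts is not given.

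Fos was a low transcript in liver, at 3.19, 2.75 and 4.81 CPM in TDB livers, against 0.881, 0.896 and 1.89 CPM in vehicle livers. The groups did not overlap, though library 3 was the highest of each. The log2 fold change of 1.54 (SE 0.41) was as large as that of Junb but did not pass (adjusted p = 0.266), and was 1.27 (SE 0.40) without TDB liver 3. DESeq2 called it at 0.0352. Fosb was barely detected, with 19 counts over the TDB livers and 11 over the vehicle livers, and was not tested.

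Jun had 10.1, 9.31 and 10.7 CPM in TDB livers, against 5.95, 7.11 and 9.05 CPM in vehicle livers. Its ranges were apart by a small margin, and the log2 fold change of 0.44 (SE 0.26) did not pass (adjusted p = 0.758) and was 0.40 without TDB liver 3. Jund had 46.5, 41.1 and 18.8 CPM in TDB livers, against 26.3, 51.6 and 26.3 CPM in vehicle livers. TDB liver 3 was the lowest and vehicle liver 2 the highest of the 6, and the log2 fold change of 0.03 (SE 0.41) was 0.35 without TDB liver 3. Atf3, so clear in tumors, had 8.77, 8.86 and 6.70 CPM in TDB livers, against 3.36, 10.1 and 2.54 CPM in vehicle livers. Vehicle liver 2 exceeded every TDB liver, and Atf3 differed by 0.61 on the log2 scale (SE 0.51, adjusted p = 0.819). Without that library the value was 1.46, and without TDB liver 3 it was 0.75.

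Egr1 varied widely between livers of one group, with 16.0, 13.2 and 69.2 CPM in TDB livers, against 15.3, 4.37 and 26.7 CPM in vehicle livers. Its log2 fold change of 1.08 (SE 0.79, adjusted p = 0.807) was -0.09 without TDB liver 3, so the direction rested on that library. Dusp1 had 20.2, 13.3 and 24.7 CPM in TDB livers, against 9.69, 7.22 and 11.9 CPM in vehicle livers. The groups did not overlap, and the log2 fold change of 1.01 (SE 0.32) did not pass (adjusted p = 0.363) and was 0.80 without TDB liver 3. Ier2 had 47.8, 32.6 and 20.7 CPM in TDB livers, against 40.1, 41.8 and 38.7 CPM in vehicle livers, with a log2 fold change of -0.25 (SE 0.31) that was 0.01 without TDB liver 3. Ier3 was near 1 CPM in every liver, at 0.852, 1.17 and 1.28 CPM in TDB livers, against 0.881, 1.40 and 1.14 CPM in vehicle livers, with a log2 fold change of -0.05 (SE 0.35) that was -0.16 without TDB liver 3.

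TDB liver 3 differed from the other TDB livers in these genes too, in part along exonic length. Against the mean of TDB livers 1 and 2, its log2 CPM was higher by 2.25 for Egr1 and by 1.49 for Fosb, whose exons sum to 4484 and 6243 bases. It differed by -1.21 for Jund and by -0.93 for Ier2, with exons of 1668 and 1522 bases. Other genes stood well above genes of their length. Ier3, the shortest with 1131 bases, was 0.35 higher where its length bin had a median of -0.90, Fos, with 2352 bases, 0.69 higher against -0.47, and Dusp1, with 3311 bases, 0.59 higher against -0.26. Egr1 and Fosb were also above their bins, whose medians were 0.11 and 0.49. The cause was not tested.

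**Figure D3:**
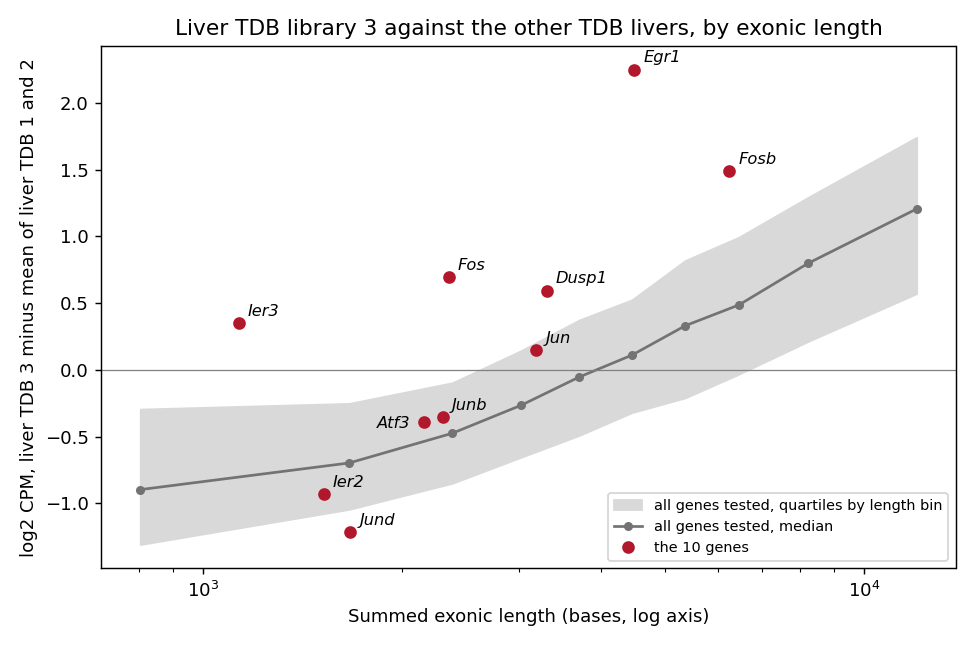
Log2 CPM of TDB liver 3 minus the mean of TDB livers 1 and 2, against summed exonic length on a log axis, for the 10 genes (red) and for all genes tested (grey, median and quartiles in 10 bins of length). The medians climb from -0.90 in the shortest bin to 1.21 in the longest, Jund and Ier2 lie below 0 and Egr1 and Fosb above, and Ier3, Fos and Dusp1 lie above the median of their length.

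Markers of other cells were read in liver too, where 1105 of all 13657 genes were past an unadjusted p of 0.05 in either direction. In TDB livers 1 of 9 T cell markers rose, Cd8a, while 7 were higher at an unadjusted p under 0.05, 3 were called by DESeq2, and sums were 25.8 to 32.3 CPM in TDB livers and 11.4 to 13.4 CPM in vehicle livers. None of 8 monocyte and macrophage markers passed by edgeR or limma-voom, while 4 were higher and 0 lower at an unadjusted p under 0.05, DESeq2 called 2 higher, and sums were 290 to 317 CPM in TDB livers and 227 to 297 CPM in vehicle livers. The 5 Kupffer cell markers went both ways. Marco rose, Timd4 was higher and Vsig4 lower at an unadjusted p under 0.05, with log2 fold changes of 0.87 and -0.91, and Clec4f was at -0.75. DESeq2 called 2 of them higher and 1 lower, and they summed to 480 to 609 CPM in TDB livers and 441 to 680 CPM in vehicle livers. The calls of Cd8a and Marco were each lost without TDB liver 2 or any 1 of the vehicle livers (adjusted p up to 0.267 and 0.248), and that of Marco also without scaling factors (0.0520). Hepatocyte markers summed to 118846 to 145788 CPM in TDB livers and 167612 to 199212 CPM in vehicle livers, though none of the 8 was called by edgeR, DESeq2 or limma-voom, with 3 lower and 1 higher at an unadjusted p under 0.05. Without TDB liver 3 Cd8a and Marco were again the genes called on these lists, and the unadjusted counts were 7 higher for T cells, 4 higher for monocytes and macrophages, 3 higher and 1 lower for Kupffer cells, and 1 higher and 3 lower for hepatocytes. The part of these cells in the change of Junb was not tested.

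The third comparison set the TDB effect in tumor against that in liver, as an interaction over the 12 libraries. None of the 10 genes passed edgeR's quasi-likelihood test, where 2.49% of 16557 genes were called, 1.83% higher and 0.658% lower (303 and 109 genes, or 267 and 190 without scaling factors), and none passed in DESeq2 or limma-voom. At an unadjusted p under 0.05, 2 were lower, Dusp1 and Junb, while 2076 of all 16557 genes were past that level in either direction. The effects quoted next come from the fit of each tissue and the differences from the fit of all 12 libraries, which has its own scaling, so that they need not add up. The effect on Dusp1 was 0.11 in tumor and 1.01 in liver, a difference of -0.94 (SE 0.35, adjusted p = 0.265). The effect on Junb was 0.75 in tumor and 1.56 in liver, a difference of -0.86 (SE 0.34, adjusted p = 0.289). For Fos the difference was -0.82 (SE 0.43, adjusted p = 0.510) and for Atf3 it was 0.73 (SE 0.53, adjusted p = 0.707). Without TDB liver 3 these differences were -0.65 for Dusp1, -0.90 for Junb, -0.48 for Fos and 0.66 for Atf3. The smallest adjusted p of any of the 10 genes over 20 alternatives was 0.128. So neither the rise of Atf3 in tumor nor that of Junb in liver was shown to differ between the tissues.

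The fourth comparison took the vehicle groups alone, tumor against liver, to place the levels without the antibody, 24 h after the dose of buffer. Of the 10 genes 6 were higher in tumor and 1 lower, while 40.8% of 15633 genes were called higher, 37.8% lower and 78.5% in either direction. Fosb, among the 6, had few counts in liver. Tumor and liver come from the same mice by the design text, but no label ties a tumor to a liver, and the test is unpaired. Scaling decides much here, as the tissues differ in composition. Without scaling factors the median log2 fold change of all genes was 1.42 in place of 0.08, the split of calls was 10495 higher and 2772 lower in place of 6371 and 5904, and 9 of the 10 genes were higher and 0 lower. With an offset that levels the trend with exonic length within each library, 9 were higher and 1 lower. Of all 15621 genes tested under that offset, 5619 were higher and 6479 lower. CPM in the next sentences are scaled over these 6 libraries and so differ from those above.

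Ier3 showed the widest gap, with 205, 206 and 248 CPM in vehicle tumors, against 1.37, 2.10 and 1.76 CPM in vehicle livers. No tumor came near any liver in this gene, and the log2 fold change was 6.97 (SE 0.21, adjusted p = 1.75e-08). Fos had 35.5, 32.8 and 49.8 CPM in vehicle tumors, against 1.37, 1.34 and 2.91 CPM in vehicle livers, 4.37 higher on the log2 scale (SE 0.32, adjusted p = 2.54e-06). Jun had 85, 69.7 and 82.9 CPM in vehicle tumors, against 9.22, 10.7 and 13.9 CPM in vehicle livers, 2.81 higher on the log2 scale (SE 0.19, adjusted p = 1.53e-06). Ranges of the tissues did not overlap for these 3 genes. The share of all genes without overlap is not given here, so this does not set them apart from other genes.

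Egr1 (log2 fold change 2.07, SE 0.51), Fosb (1.87, SE 0.41) and Junb (1.27, SE 0.23) were also higher in vehicle tumors, with adjusted p-values of 0.00442, 0.00240 and 7.07e-04. Fosb had only 2 to 5 counts per vehicle liver, against 32 to 43 per vehicle tumor. It passed the count filter through the tumors alone, so its call is no separate support. Without the low-count filter the call of Egr1 was lost (adjusted p = 0.0506). Egr1 was the least even of them, with 81.9, 112 and 107 CPM in vehicle tumors, against 23.7, 6.55 and 41.2 CPM in vehicle livers. Dusp1 was the 1 gene lower in tumor, with 7.44, 6.77 and 9.57 CPM in vehicle tumors, against 15, 10.8 and 18.4 CPM in vehicle livers. Its log2 fold change of -0.90 (SE 0.24, adjusted p = 0.00677) turned to 0.43 (adjusted p = 0.127) without scaling factors. Scaling shifts all genes nearly alike, so its place below the median of all genes on both scales is no separate support.

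Ier2 did not pass between the tissues on this scale, with 68.4, 63.5 and 62.8 CPM in vehicle tumors, against 62.2, 62.7 and 59.6 CPM in vehicle livers (log2 fold change 0.08, SE 0.12, adjusted p = 0.579). It was higher in vehicle tumors without scaling factors (1.42, adjusted p = 7.72e-06) and with the offset for exonic length (0.71, adjusted p = 5.39e-04). Jund was at 0.35 (SE 0.26) and Atf3 at 0.93 (SE 0.43), and neither passed (adjusted p = 0.242 and 0.0703). Both values depended on vehicle liver 2. Without it Jund was at 0.72 with an adjusted p of 0.00160, and Atf3 at 1.75 with an adjusted p of 1.57e-05.

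Per kilobase of exon, which lets levels of different genes be compared, Ier3 led in tumor, with 293 ± 7.59 CPM per kb in TDB tumors and 296 ± 35.9 CPM per kb in vehicle tumors (SD, n = 3 each), apart from every other gene. In TDB tumors Jund, Junb, Ier2, Jun, Fos, Egr1 and Atf3 followed in that order, from 71.0 to 28.5 CPM per kb, and each overlapped its neighbour. Vehicle tumors had the order Ier2, Jund, Jun, Egr1, Junb, Fos and Atf3, with Atf3 at 10.8 CPM per kb and apart from Fos. Dusp1 (3.94 in TDB tumors and 3.64 in vehicle tumors) and Fosb (0.393 and 0.269) were last, each apart from the gene before it.

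In liver the order per kilobase was another one. TDB livers had Ier2, Jund and Junb on top, at 22.1, 21.3 and 17.6 CPM per kb with overlapping ranges. In vehicle livers Ier2 and Jund led at 26.4 and 20.8 CPM per kb, and Junb followed at 5.95 CPM per kb, apart from Jund. Egr1, Dusp1, Atf3 and Jun came next in both groups of livers with overlapping ranges, and Fos, Ier3 and Fosb were lowest. The place of Egr1 in TDB livers, at 7.31 CPM per kb, rested on TDB liver 3. Without it Egr1 averaged 3.26 CPM per kb, below Dusp1 at 5.06 and Atf3 at 4.09, while the other genes kept their order.

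Shares within the Jun family were computed per kilobase in the same way. Junb took 39.7%, 38.9% and 50.2% of the summed CPM per kb of Jun, Junb and Jund in TDB livers, against 22.3%, 14.9% and 27.2% in vehicle livers. No TDB liver overlapped a vehicle liver in this share. Jund took 54.2%, 54.6% and 38.4% in TDB livers, against 69.5%, 79.4% and 61.7% in vehicle livers, while the mean share of Jun was 8.01% in TDB livers and 8.34% in vehicle livers. In tumors Junb took 33.4%, 34.4% and 30.8% with TDB, against 20.7%, 23.5% and 30.7% with vehicle, so that vehicle tumor 3 all but reached TDB tumor 3.

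**Figure D4:**
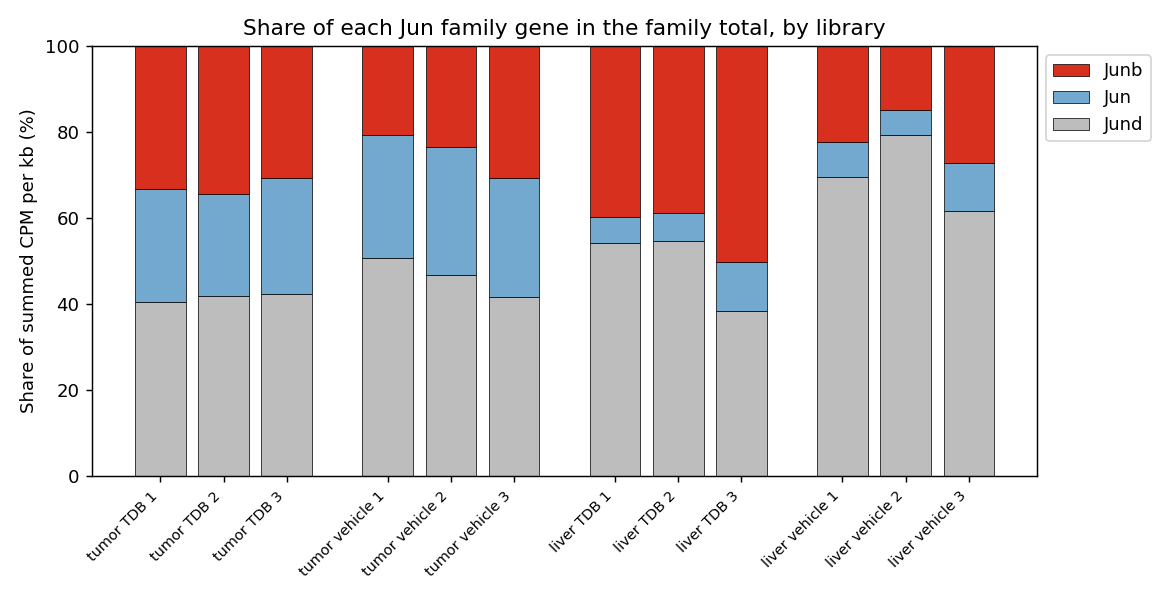
Share of Junb, Jun and Jund in their summed CPM per kb in each of the 12 libraries, as stacked bars from 0 to 100%. The share of Junb is 38.9% to 50.2% in TDB livers and 14.9% to 27.2% in vehicle livers, and Jun holds 23.8% to 29.6% in tumors and 5.72% to 11.4% in livers.

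Among Fos, Fosb, Fosl1 and Fosl2, Fos took 68.3%, 72.2% and 68.0% of the summed CPM per kb in TDB tumors, against 66.1%, 63.0% and 61.5% in vehicle tumors. In livers it took 80.4%, 71.5% and 69.1% with TDB, against 57.3%, 53.6% and 65.7% with vehicle. Neither pair of ranges overlapped. Most of the remainder was Fosl2, a longer-lived relative of Fos, at 26.3% to 30.3% in TDB tumors, 32.5% to 36.4% in vehicle tumors, 18% to 28.3% in TDB livers and 31.1% to 40.0% in vehicle livers.

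Other genes of the pathway were read from 5 lists, whose counts in tumor stand against the 15.8% of all genes called higher and 13.1% called lower. Of 13 other AP-1 family genes, 8 rose in TDB tumors and 0 fell by edgeR, DESeq2 or limma-voom, with 0 lower also at an unadjusted p under 0.05, and a median log2 fold change of 0.56. Batf2, a leucine zipper factor that interferon induces, had 113 ± 4.59 CPM in TDB tumors and 0.419 ± 0.177 CPM in vehicle tumors (SD, n = 3 each), a log2 fold change of 8.05 (SE 0.17). Batf, a partner of Jun proteins in T cells, rose by 2.37 (SE 0.32), Jdp2, a repressor that pairs with Jun, by 0.80 (SE 0.14), and the small Maf gene Mafk by 0.78 (SE 0.080).

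Of 30 other immediate early genes 11 rose and 3 fell in TDB tumors. The kinase gene Pim1 rose by a log2 fold change of 1.94 (SE 0.21), the nuclear receptor gene Nr4a3 by 1.43 (SE 0.23) and the survival gene Mcl1 by 0.60 (SE 0.066), while the kinase gene Sgk1 fell by 0.59 (SE 0.065). Of 9 MAP kinase phosphatases other than Dusp1, 4 rose and 2 fell. Dusp2, which inactivates ERK and p38 in the nucleus, had 4.92 ± 0.636 CPM in TDB tumors and 0.509 ± 0.135 CPM in vehicle tumors (SD, n = 3 each), a log2 fold change of 3.26 (SE 0.26). Dusp10, which acts on p38 and JNK, rose by 1.89 (SE 0.27) and Dusp5, a phosphatase of ERK, by 0.44 (SE 0.095), while Dusp8 fell by 0.93 (SE 0.11). In the fit of all 12 libraries the calls of Nr4a3 (adjusted p = 0.254), Dusp5 (0.337) and Dusp8 (0.0614) were lost.

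Of 18 upstream kinases and serum response factors 6 rose and 1 fell in TDB tumors, among them the CREB family gene Crem (0.79, SE 0.10), the serum response factor partners Elk4 (0.71, SE 0.12) and Mrtfb (0.53, SE 0.072), and the JNK gene Mapk9 (0.33, SE 0.075). In the fit of all 12 libraries the calls of Elk4 (adjusted p = 0.453), Mrtfb (0.717) and Mapk9 (0.659) were lost, and that of Mapk9 also without scaling factors (0.0753). The median of this list was 0.06. Of 13 heat shock genes that dissociation also induces, 2 rose, Hsp90ab1 (0.31, SE 0.089) and Bag3 (0.28, SE 0.072), and 2 fell, Hspb1 (-0.73, SE 0.23) and Dnajb1 (-0.29, SE 0.065), each count near the share of all genes. The calls of Hsp90ab1, Hspb1 and Bag3 were lost without 4, 5 and 2 of the 6 libraries left out in turn, with adjusted p-values up to 0.107, 0.117 and 0.0694, and in 4, 4 and 3 of the 9 other alternatives, with values up to 0.582, 0.231 and 0.682. That of Dnajb1 was lost in 1, the fit of all 12 libraries (0.260). This list summed to 2584 to 2737 CPM in TDB tumors and 2141 to 2367 CPM in vehicle tumors, and to 909 to 1189 CPM in TDB livers and 797 to 980 CPM in vehicle livers. The part of dissociation in the changes of the 10 genes was not tested.

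In TDB livers none of the genes on these 5 lists passed edgeR's quasi-likelihood test or limma-voom. At an unadjusted p under 0.05, 2 of 12 other AP-1 genes, 12 of 26 other immediate early genes and 2 of 8 MAP kinase phosphatases were higher. At that level 1 immediate early gene was lower, and 1105 of all 13657 genes passed in either direction. DESeq2 called 1, 4 and 2 genes of these 3 lists higher and 0 lower, where it called 292 higher and 60 lower over all genes. No upstream factor and no heat shock gene passed by any of the 3 tools or at an unadjusted p under 0.05. The other immediate early genes had a median log2 fold change of 0.34 in tumor and 0.59 in liver. Without TDB liver 3 that median in liver was 0.38, and 1 AP-1 gene (Batf2) and 1 immediate early gene (Gadd45g) were called higher. At an unadjusted p under 0.05, 2 AP-1 genes, 11 immediate early genes, 2 phosphatases and 1 heat shock gene were then higher. At that level 2 immediate early genes and 1 heat shock gene were lower, and 941 of all 13888 genes were higher and 493 lower. The median of the other AP-1 genes was 0.14 without that library and 0.46 with it.

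The interaction test called Batf2 (5.88, SE 0.46) and Crem (1.08, SE 0.24) as changed more upward in tumor than in liver, and Egr2, a relative of Egr1, as changed less (-4.17, SE 0.84). Egr2 had 21.4 ± 3.29 CPM in TDB tumors and 17.4 ± 2.94 CPM in vehicle tumors (SD, n = 3 each), while TDB livers held 60 counts of it and vehicle livers 2, a ratio of 23.2 (95% exact interval 6.14 to 196, for counting error only). The call of Egr2 was lost without 4 of the 12 libraries left out in turn (adjusted p up to 0.0762) and that of Crem without 9 (up to 0.118) and in 3 of the 8 other alternatives (up to 0.148), while that of Batf2 passed in all 12 and in the 8 others. Without TDB liver 3 these 3 genes were called together with Elk4 as more upward in tumor and Ier5 and Rhob as less.

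Between the vehicle groups, 7 of 12 other AP-1 genes were higher in tumor and 4 lower, 20 of 30 other immediate early genes higher and 4 lower, 7 of 8 MAP kinase phosphatases higher and 1 lower, and 10 of 18 upstream factors higher and 5 lower. These counts stand against the 40.8% of all genes called higher and 37.8% lower, and depend on scaling as those do. Without scaling factors they were 8 higher and 3 lower, 25 and 3, 7 and 1, and 16 and 1 in the same order of lists. Fosl2 (log2 fold change 4.32, SE 0.28), the nuclear receptor genes Nr4a1 (5.80, SE 0.26) and Nr4a2 (6.67, SE 0.39) and Dusp4 (6.23, SE 0.40) were among the genes higher in vehicle tumors. Nr4a2 had only 1 to 2 counts per vehicle liver and Dusp4 2 to 15, so their fold changes rest on few liver counts. Of 13 heat shock genes 4 were higher in vehicle tumors and 7 lower, or 7 higher and 2 lower without scaling factors. Hspa1a, the inducible HSP70 gene, was higher (3.12, SE 0.38), and Dnajb4 (-1.81, SE 0.14), Dnaja1 (-1.58, SE 0.14) and Hspe1 (-2.13, SE 0.28) were lower, the call of Dnaja1 being lost without scaling factors (adjusted p = 0.143). How far dissociation of 2 different tissues contributes to these differences was not tested.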

How the data were processed

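Bulk RNA-seq of 12 libraries was analysed, in 4 groups of 3 taken from the titles (tumor TDB, tumor vehicle, liver TDB, liver vehicle). The authors deposited whole-number read counts per gene, not normalized, for 52636 Ensembl identifiers. GSNAP, limma and the build GRCm38 are named per the submitters' processing notes, without version or role. The sources used here do not name the read counter, its annotation or its strand setting. An FPKM table was not used here. Symbols and exon lengths came from GENCODE M21, which matched 52489 identifiers. The 147 without a match stayed in the tests, and 24841 identifiers had no counts.

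The members, the gene lists and the tests were chosen with earlier results of these data known. Tests on the counts used edgeR 4.0.16 under R 4.3.3, with TMM scaling, filterByExpr (minimum count 10, minimum total 15) and a robust quasi-likelihood F test (Benjamini-Hochberg adjustment over all genes tested, threshold 0.05) on the 6 libraries compared, or on all 12 for the interaction. The SE is the log2 fold change divided by the square root of F. CPM were computed on TMM-scaled library sizes within each tissue, and CPM per kb divide them by summed exonic length. The procedure was tested on simulated data. Alternatives were median-of-ratios and upper quartile scaling, no filter, DESeq2 1.42.0, limma-voom (limma 3.58.1), a replicate block, one fit of all 12 libraries and each library left out. Library totals without scaling factors and an offset for exonic length within each library (lowess of log2 counts plus 0.5, span 0.3) were added after seeing the data.

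All 10 genes are named in every comparison, and from each list up to 4 genes per comparison, those past the threshold with the smallest p. Genes most like Fos and Junb are the 5 with the highest Pearson correlation of log2 CPM deviations from group means. Tumor and liver of the vehicle groups enter several comparisons, which therefore share libraries. Libraries of a group differed by more than sampling noise in every pair. Precision is limited by 3 mice per group, and depth was 18460159 to 29396324 counts per library.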

Additional observations from a re-analysis of the deposited data

How the results depend on the processing

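Atf3 in tumor kept its call in each of 15 alternatives, Ier2 in 14, Fos in 9 and, in liver, Junb in 10 of 15. In tumor the number of genes called was 4456, against 1695 in the fit of all 12 libraries and 2942 to 4860 with each library left out. Of the 10 genes 2 were higher, against 1 without the filter and 1 in the fit of all 12 (1 to 3 with a library left out), and 1 was lower, against 0 in the fit of all 12. In liver 73 genes were called, against 145 without the filter, 352 by DESeq2, 323 in the fit of all 12, 174 with the offset for exonic length and 14 to 163 with a library left out, and 1 of the genes described was higher, against 2 by DESeq2 and 2 in the fit of all 12 (0 to 1 with a library left out). The interaction called 412 genes, against 897 by DESeq2 and 241 to 696 with a library left out. Between vehicle groups Dusp1 turned to 0.43 without scaling factors, leaving 0 genes lower. A fit with a library left out has smaller groups. The cause of these shifts was not tested.

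No label says that library numbers mark one mouse or batch. The correlation of same-numbered libraries' deviations was -0.05, 0.23 and 0.40 in liver and 0.05, -0.01 and 0.22 in tumor, and in neither did every library correlate best with its own number. With a replicate block, 350 genes were called in liver, 2 of the genes described were higher there (Junb and Fos, adjusted p = 0.0243 for Fos), and the interaction called 258 genes. Jund in liver was then at -0.00084.

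Some values that did not pass changed sign. Not all of them were small, as for Egr1 in liver and Atf3 in the interaction. In liver these were Jund (-0.00103 in the fit of all 12, -0.21 to 0.43 with a library left out), Egr1 (-0.089 to 1.73), Ier2 (-0.59 to 0.0057) and Ier3 (0.070 without scaling factors, 0.19 with the length offset, -0.21 to 0.12). In tumor these were Egr1 (0.0064 with median-of-ratios scaling, 0.0065 by DESeq2, 0.045 with the length offset, -0.17 to 0.15), Ier3 (0.042 with the length offset, -0.066 to 0.10) and Dusp1 (-0.017 without scaling factors). For the interaction these were Fosb (-0.13 without scaling factors, -0.23 to 0.85), Jund (-0.059 without scaling factors, -0.27 to 0.37), Ier3 (0.060 with median-of-ratios scaling, 0.033 with upper quartile scaling, 0.059 by DESeq2, 0.0043 by limma-voom, -0.16 to 0.17), Egr1 (-1.76 to 0.13), Atf3 (-0.11 to 1.06) and Ier2 (-0.38 to 0.15).

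Without scaling factors the median log2 fold change of all genes was -0.15 in tumor and 0.15 in liver, in place of -0.02 and 0.04. In liver, Fosb and Egr2 rest on few counts.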

Other observations

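Over the 12 libraries, as deviations of log2 CPM from the group means, the pattern of Fos was most like those of Tspan2 (Pearson's r 0.94), Wdr48 (0.92), Rbm12b1 (0.92), Slc37a2 (0.92) and Irf2bpl (0.91), ranked among 11395 genes. Irf2bpl averaged 211 CPM in TDB tumors and 170 CPM in vehicle tumors, and 9.97 CPM in TDB livers and 5.56 CPM in vehicle livers. The pattern of Junb was most like those of Gm13889 (r 0.89), Casp4 (0.84), Rarres2 (0.83), Hilpda (0.82) and Bace2 (0.82). Casp4, an inflammatory caspase gene, averaged 30.4 CPM in TDB tumors and 12.3 CPM in vehicle tumors, and 4.17 CPM in TDB livers and 2.57 CPM in vehicle livers. Rarres2, which encodes the chemoattractant chemerin, averaged 21.0 CPM in TDB tumors and 2.19 CPM in vehicle tumors, and 459 CPM in TDB livers and 591 CPM in vehicle livers. These libraries share depth and the length trend of TDB liver 3, and the likeness is a description of them.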
